A study of Mus musculus with 24 samples.

Results

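The 42 genes described here encode parts of the motile cilium or switch its construction on. They were chosen by name for their role in the cilium, with earlier results of these data known. All 42 were found among the 49280 features of the count table, 41 by symbol and 1, Spag6l, by its Ensembl identifier, which the table lists under the older symbol Spag6. The data were 24 poly-A RNA libraries of mouse lung organoids, which are small structures grown in a gel from freshly isolated wild-type lung epithelial cells mixed with CCL206 cells, an established mouse lung fibroblast line. The epithelial cells came from 3 mice, and the cultures of each mouse gave 1 library to each of 8 groups. A mouse number therefore marks the donor of the epithelial cells together with its cultures, also in the fibroblast libraries. In the CSETF groups the cultures had 5% cigarette smoke extract (CSE) to day 14 and, once taken apart and plated again with fresh fibroblasts, 100 nM tanimilast with 100 nM formoterol to day 28. The TF groups had vehicle first and the same 2 drugs after replating, the CSE groups had the extract first and vehicle afterwards, and the Veh groups had vehicle throughout. Tanimilast inhibits phosphodiesterase 4, an enzyme that breaks down cyclic AMP, and formoterol is a bronchodilator that stimulates the beta-2 adrenergic receptor. The prefix Epi marks cells that carried the surface protein Epcam, and the prefix Fib marks cells without it. The fibroblasts of all groups were plated fresh on the day of replating, so those harvested had not been in culture with the extract.

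A motile cilium is built on an axoneme, a cylinder of microtubule doublets around a central pair of microtubules. Outer and inner dynein arms on the doublets are the motors, radial spokes and the central pair time their strokes, and tektins and other proteins lie along the doublets. In the airway these genes are used mostly by multiciliated cells, whose beating clears mucus. Multicilin (Mcidas) and cyclin O (Ccno) act early in the multiplication of basal bodies, and the transcription factors Foxj1, Rfx2 and Rfx3 then switch on axoneme genes. RFX proteins bind a palindromic DNA element called the X-box, and Foxj1 belongs to the forkhead factors. Axoneme genes are also used in sperm and in the cells that line the brain ventricles.

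Stretches of DNA before the start sites of these genes show which of them carry letters of the kind RFX proteins read. RefSeq promoters of assembly GRCm38.p6, 300 bases each and reaching from 250 bases before the start site to 50 after it, matched 36 of the 42 members. A loose spelling of the X-box, GTNNCC and GNAAC with 3 bases of any kind between them, was searched on both strands. It was found in 8 of these 36 members (22.2%), against 714 of all 32851 promoters of that length (2.17%). The forkhead letters TGTTTAC were found in 2 of the 36 members, Tekt3 and Cfap43 (5.56%), against 3.65% of all promoters, and overlapped no X-box match. The windows of 30 bases that hold the X-box matches are shown because they place the same element in genes of different parts of the axoneme. Each runs 5′ to 3′ along the strand of its gene, with the match in capitals.
Ccno, cyclin O, chr13:112987575-112987604 (+): gggctgcgGTTGCCACGGTGACgacagacg
Ccdc114, outer arm docking, chr7:45924192-45924221 (+): ggccccttGTCTCCCCAGTAACcagactac
Spag6l, central pair, chr16:16829314-16829343 (-): tccggttgctgtcgGTTGCCCTGGAGACgc
Spag16, central pair, chr1:69826859-69826888 (+): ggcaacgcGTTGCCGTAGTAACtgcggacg
Hydin, central pair, chr8:110266948-110266977 (+): actctgcgGTTGCTGTGGCAACagatggta
Tekt4, tektin, chr17:25471422-25471451 (+): ccccacctGTGTCCTGGGAAACaaactcat
Tekt4, second match, chr17:25471582-25471611 (+): tatacaatGTTCCTTAGGCAACcaggaacc
Cfap44, doublet protein, chr16:44394764-44394793 (+): ggagggacGTTGCTATGGCAACcgcagtaa
Cfap61, doublet protein, chr2:145934768-145934797 (+): gccgcgtcGTTTCCTTAGCAACtgtgtgcg
Of these 8 genes, the first base of the match lay 219 bases before the start site in Ccno and 103 before it in Spag16. It lay 15 before it in Ccdc114, 21 in Hydin, 27 in Cfap44 and 8 in Cfap61, and in Spag6l it lay 34 bases after it. In Tekt4 the first match began 160 bases before the start site and the second at it (offset 0). A match describes the letters of a window and is not a measured binding site.

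Most of these genes were present at a low level, and a few of the best known structural genes were close to 0. Levels are given as CPM, a gene's counts scaled to a common library total, and 1 CPM stood for at least 31.8 counts in every library, since libraries held between 31832267 and 47534709 counts. In the epithelial fraction 21 of the 42 members averaged over 1 CPM and 3 averaged over 10 CPM, and the median member averaged 0.977 CPM. The median member averaged 0.837 CPM in the fibroblast fraction, where 24 members averaged under 1 CPM. Epcam averaged 1231 ± 279 CPM in epithelial libraries and 449 ± 135 CPM in fibroblast libraries (SD, n = 12 each), so the fibroblast libraries held much epithelial RNA. Pdgfra, a fibroblast receptor, averaged 44.7 ± 26.9 CPM in epithelial libraries and 262 ± 53.0 CPM in fibroblast libraries (SD, n = 12 each). The leukocyte gene Ptprc averaged 0.0220 and 0.0703 CPM and the endothelial gene Pecam1 0.278 and 0.907 CPM in epithelial and fibroblast libraries. Ptprc was far below the sum of a list of 7 leukocyte genes that includes it. That sum had a median of 55.0 CPM (28.1 to 74.2) in epithelial and 41.2 CPM (27.5 to 54.3) in fibroblast libraries. A list of 6 endothelial genes summed to medians of 0.521 and 1.92 CPM. In such bulk libraries a smaller number of ciliated cells and less RNA in each of them cannot be told apart.

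**Figure D1:**
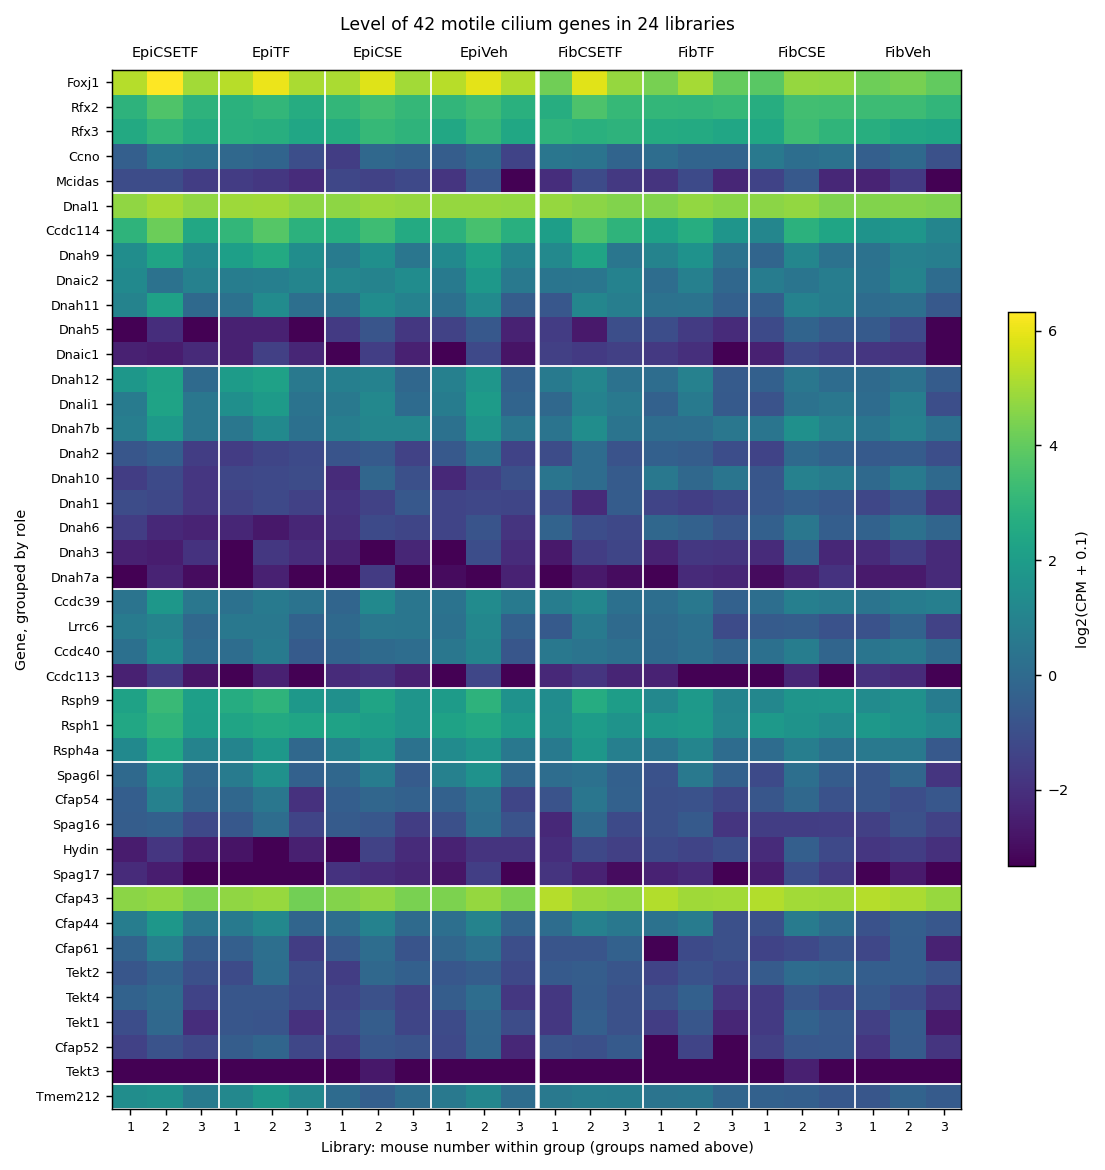
Level of each of the 42 genes (vertical axis, grouped by role) in each of the 24 libraries (horizontal axis, grouped by treatment and fraction, with the mouse number below), as log2 of CPM with 0.1 added. Foxj1, Dnal1 and Cfap43 are bright in every library, Tekt3 is dark in all but 2, and the column of mouse 2 is the brightest of EpiCSETF for most genes.

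The regulator Foxj1 was the highest member of all for its length. Set against exon length (the union of exons in the GENCODE annotation of GRCm38), it reached 17.3 CPM per kilobase in the epithelial fraction. After it came the dynein light chain gene Dnal1 (4.02 CPM per kilobase), the radial spoke gene Rsph1 (3.57), the doublet protein gene Cfap43 (3.38), Rsph9 (3.14) and Tmem212 (2.49), a membrane protein gene expressed in multiciliated cells. At the other end were the tektin gene Tekt3 (0.00257 CPM per kilobase), the inner arm genes Dnah7a (0.00344) and Dnah3 (0.00795), the central pair genes Hydin (0.00591) and Spag17 (0.00885), and Dnah5 (0.0112), a main outer arm motor whose human counterpart is often mutated in primary ciliary dyskinesia. Dnah7a and Dnah7b are close copies, as are Spag6 and Spag6l, and reads could have been shared between them.

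By role, the 5 regulators spanned Foxj1 at 45.4 CPM, Rfx2 at 8.38, Rfx3 at 6.67, Ccno at 0.717 and Mcidas at 0.264 CPM, as means over the 12 epithelial libraries. Of the 7 outer arm genes, Dnal1 averaged 27.9 CPM, the docking gene Ccdc114 8.91, the distal motor Dnah9 3.01, the intermediate chain gene Dnaic2 1.93 and the proximal motor Dnah11 1.77 CPM. Dnah5 averaged 0.175 CPM and the other intermediate chain gene, Dnaic1, 0.119 CPM. These 2 were thus the lowest of the outer arm, each with 0 counts in 4 of the 24 libraries.

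Inner arm genes were low throughout, with epithelial means between 0.0439 CPM for Dnah7a and 2.37 CPM for Dnah12. The others of that arm were the light intermediate chain gene Dnali1 (2.15 CPM), Dnah7b (1.87), Dnah2 (0.460), Dnah10 (0.328), Dnah1 (0.304), Dnah6 (0.204) and Dnah3 (0.114 CPM). The ruler genes Ccdc39 (1.58 CPM) and Ccdc40 (1.14 CPM), which set the spacing of spokes and inner arms, and Lrrc6 (1.25 CPM), which helps assemble dynein arms in the cytoplasm, were close to 1 CPM, and Ccdc113 averaged 0.0935 CPM. All 3 radial spoke head genes were over 2 CPM, at 5.03 CPM for Rsph9, 4.89 for Rsph1 and 2.38 for Rsph4a.

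The 5 central pair genes averaged 1.48 CPM for Spag6l, 0.811 for Cfap54, 0.552 for Spag16, 0.107 for Hydin and 0.0751 CPM for Spag17. Among the genes of the doublets, Cfap43 averaged 23.8 CPM, Cfap44 1.498, Cfap61 0.781, Tekt2 0.553, Tekt4 0.507, Tekt1 0.443 and Cfap52 0.427 CPM. Tekt3 had no count in 22 of the 24 libraries and 2 or 3 counts in the remaining ones. Tmem212 averaged 1.79 CPM. Spoke and docking genes were thus at several CPM while Dnah5, Dnaic1, Hydin and Spag17, which code for main parts of the same axoneme, were near 0.1 CPM.

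The largest differences between libraries of the same group followed the mouse. In the EpiCSETF group 35 of the 41 members with any count were highest in mouse 2, and so were 28 of 40 in EpiTF, 33 of 42 in EpiCSE and 38 of 41 in EpiVeh. Over all genes that passed the filter on low counts, mouse 2 was highest for 40.1% in EpiCSETF, 33.9% in EpiTF, 41.0% in EpiCSE and 40.9% in EpiVeh. In the fibroblast fraction mouse 2 was highest for 26 of 41 members in FibCSETF, 27 of 41 in FibTF, 31 of 42 in FibCSE and 30 of 41 in FibVeh, against 28.7%, 32.6%, 35.3% and 33.7% of all genes. Of the 42 members, 40 had their highest value of all in a library of mouse 2, and 17 had it in the EpiCSETF library of that mouse. The matching shares of all genes were not computed. Some of these peaks rest on few counts, such as 3 for Tekt3 in FibCSE and 8 for Dnah7a in EpiCSE. What set mouse 2 or its cultures apart was not tested, and mouse and culture cannot be told apart here.

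Foxj1 shows the pattern. It had 37.5, 79.7 and 31.6 CPM in EpiCSETF libraries of mice 1, 2 and 3, 39.2, 65.1 and 33.7 CPM in EpiTF, 34.2, 57.8 and 31.6 CPM in EpiCSE, and 38.4, 60.7 and 35.8 CPM in EpiVeh. Each epithelial library of mouse 2 was above every epithelial library of the other mice, whatever the treatment. Fibroblast libraries had 18.8, 59.0 and 27.8 CPM of Foxj1 in FibCSETF, 20.02, 32.4 and 16.3 CPM in FibTF, 14.3, 27.6 and 26.8 CPM in FibCSE, and 18.3, 20.2 and 16.1 CPM in FibVeh. There the mice overlapped, and the FibCSETF library of mouse 2 stood above the rest.

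**Figure D2:**
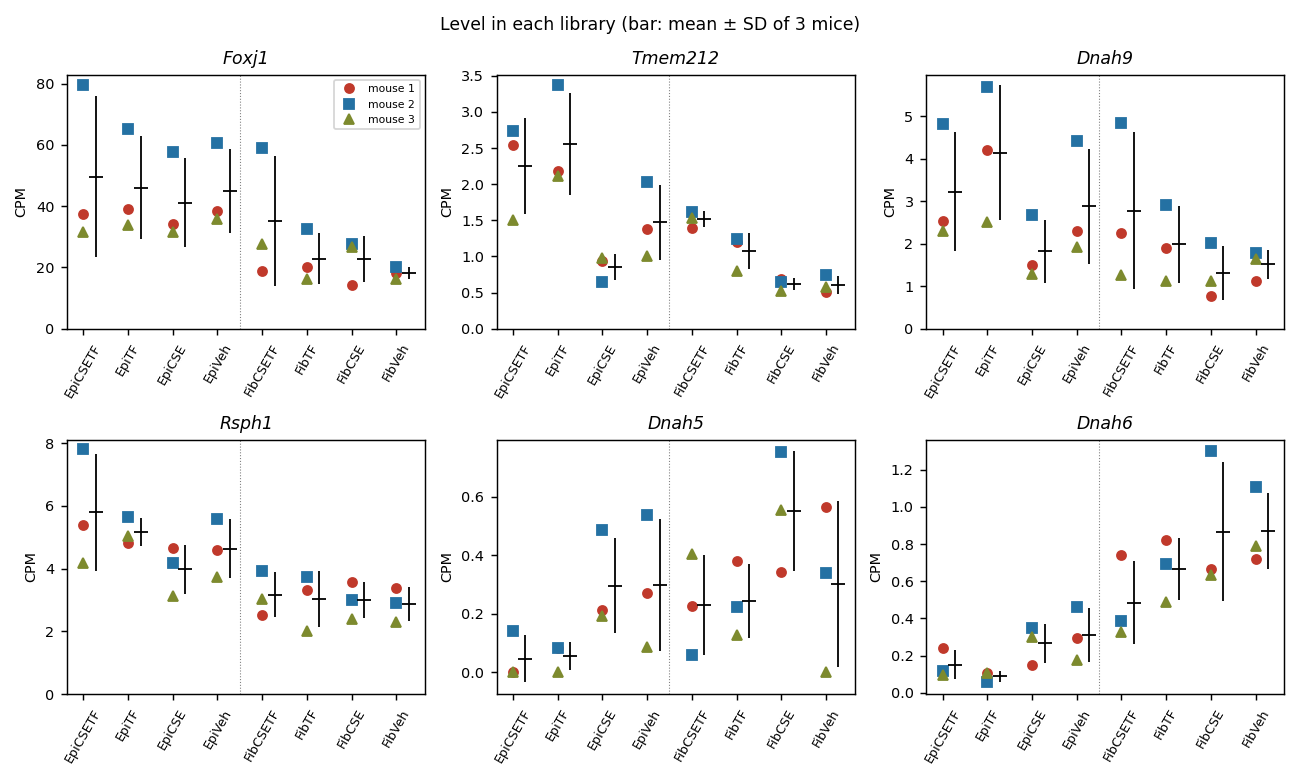
CPM of 6 genes in each library (vertical axes, each from its own range) by group (horizontal axis, epithelial groups left of the dotted line), with the mouse as colour and shape and the bar as mean ± SD of 3 mice. In Foxj1 the squares of mouse 2 lie above the other mice in each epithelial group, and in Tmem212 the FibCSETF and FibTF libraries lie above all FibCSE and FibVeh libraries.

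The 2 fractions were compared first, over all 24 libraries, to see where the ciliary RNA was. Of the 42 members 38 passed the filter on low counts, and 16 of them were higher and 5 lower in the epithelial fraction at an adjusted p under 0.05. Such a call was common: 68.9% of all 19142 genes tested were called, 6636 higher and 6544 lower. The median of the 38 log2 fold changes was 0.39, beside 0.03 over all genes tested. With the mouse as a block 19 members were higher and 5 lower, beside 72.2% of all genes. Without the libraries of mouse 1 the count was 7 higher and 4 lower, and without those of mouse 2 it was 14 higher and 5 lower.

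The genes higher in the epithelial fraction came from the regulators, docking and dynein genes, the spokes, the central pair and the doublets. Foxj1 ranged from 31.6 to 79.7 CPM (median 37.9) in epithelial libraries and from 14.3 to 59.0 CPM (median 20.1) in fibroblast libraries, a log2 fold change of 0.96 ± 0.21 (SE; adjusted p = 0.000589). It was higher in the epithelial member of 12 of 12 pairs from the same mouse and treatment, although the ranges of the fractions overlapped. Tmem212 ranged from 0.647 to 3.37 CPM in epithelial libraries and from 0.503 to 1.61 CPM in fibroblast libraries (0.93 ± 0.15, adjusted p = 2.01e-05, higher in 10 of 12 pairs). All 3 radial spoke head genes were higher, with Rsph1 at 0.73 ± 0.14 (adjusted p = 9.58e-05, 12 of 12 pairs), Rsph9 at 0.82 ± 0.21 and Rsph4a at 0.75 ± 0.27.

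Of the called genes, the 3 with the largest rises were the doublet gene Cfap61 and the inner arm genes Dnah12 and Dnali1. Cfap61 had a log2 fold change of 1.09 ± 0.36 (adjusted p = 0.0116), Dnah12 one of 1.07 ± 0.30 (adjusted p = 0.00379) and Dnali1 one of 1.05 ± 0.33 (adjusted p = 0.0085), and each was higher in 10 of 12 pairs. These 3 lost the call without mouse 1, at adjusted p = 0.0895 for Cfap61, 0.122 for Dnah12 and 0.103 for Dnali1, and Cfap61 lost it also without mouse 2 (0.117). Spag6l (1.05 ± 0.32), Ccdc114 (0.97 ± 0.24), Lrrc6 (0.92 ± 0.24), Spag16 (0.72 ± 0.30), Dnah9 (0.71 ± 0.25), Cfap44 (0.70 ± 0.27), Dnaic2 (0.54 ± 0.18) and Dnal1 (0.26 ± 0.05) were the other 8 that rose.

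The 5 genes lower in the epithelial fraction were motor and scaffold genes. Dnah6, an inner arm heavy chain, ranged from 0.0558 to 0.464 CPM (median 0.161) in epithelial libraries and from 0.328 to 1.30 CPM (median 0.707) in fibroblast libraries. Its log2 fold change was -1.88 ± 0.23 (adjusted p = 7.3e-07), and it was lower in the epithelial member of all 12 pairs. Dnah10, another inner arm heavy chain, had 0.113 to 0.808 CPM in epithelial libraries and 0.495 to 1.77 CPM in fibroblast libraries (-1.72 ± 0.27, adjusted p = 1.34e-05). The central pair gene Hydin (-1.46 ± 0.40, adjusted p = 0.00317), Dnah5 (-1.25 ± 0.52, adjusted p = 0.0402) and Cfap43 (-0.40 ± 0.08, adjusted p = 0.000174) were also lower. Except for Cfap43 these genes averaged 1.10 CPM or less in both fractions.

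The members thus did not all differ the same way between the fractions. The early regulators did not pass: Ccno had a log2 fold change of -0.35 ± 0.22 (adjusted p = 0.165) and Mcidas one of 0.39 ± 0.43 (adjusted p = 0.429). Rfx2 (-0.04 ± 0.12) and Rfx3 (0.09 ± 0.11) had small values, and the ruler genes Ccdc39 (0.25 ± 0.21) and Ccdc40 (0.07 ± 0.21) did not pass either. Of the 8 genes with an X-box match 5 were higher in the epithelial fraction (Ccdc114, Spag6l, Spag16, Cfap44 and Cfap61), Hydin was lower, and Ccno and Tekt4 were not called. Of the 24 tested members with a promoter and no match, 7 were higher and 4 lower. Of all genes tested 34.7% were higher and 34.2% lower.

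The other lists set these counts beside cells of known kind. All 18 genes of epithelial identity were higher in the epithelial fraction, with a median of 1.14, and all 11 tested genes of fibroblast identity were lower, with a median of -2.66. Over all genes tested 34.7% were higher and 34.2% lower. Of 54 tested genes of a second list for multiciliated cells, 18 were higher and 11 lower (median 0.37). Of 30 genes for intraflagellar transport and the base of the cilium, which also serve the primary cilium of most cell types, 8 were higher and 12 lower (median -0.12).

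**Figure D3:**
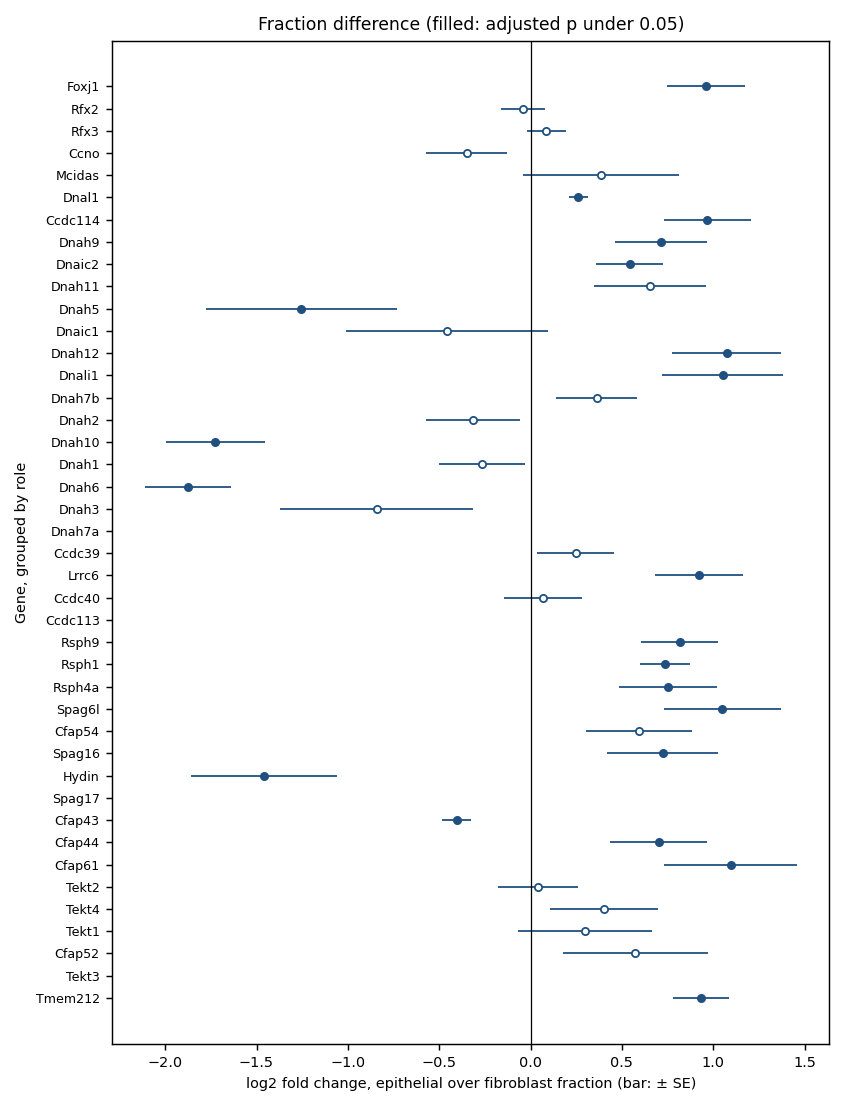
Log2 fold change of the epithelial over the fibroblast fraction (horizontal axis, bar ± SE) for each member that passed the filter on low counts (vertical axis, grouped by role), filled where the adjusted p is under 0.05. The 3 radial spoke genes lie right of 0 and Dnah6 lies farthest to the left at -1.88.

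The next question was whether tanimilast with formoterol changed these genes. In the epithelial fraction 36 members passed the filter, and 0 were called by edgeR's quasi-likelihood test in the effect averaged over CSE, beside 0.00554% of all 18038 genes. At an unadjusted p under 0.05 there were 4 members (Tmem212, Dnah6, Dnah5 and Dnah9), DESeq2 called 1 (0.174% of all genes), and edgeR with the mouse as a block called 1 (0.205% of all genes). Of the 36 members 26 had a positive value, with a median of 0.17, beside -0.005 and 48.2% positive over all genes. This median moved with single libraries of mouse 2: it was -0.00422 without EpiCSETF, 0.04 without EpiTF, 0.30 without EpiCSE and 0.45 without EpiVeh. Without mouse 2 altogether it was 0.10, with 27 positive.

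Tmem212 had the smallest p of the members. It had 2.54, 2.73 and 1.499 CPM in EpiCSETF libraries, 2.19, 3.37 and 2.12 CPM in EpiTF, 0.933, 0.647 and 0.983 CPM in EpiCSE, and 1.38, 2.03 and 1.00 CPM in EpiVeh, in the order of the mice. All 6 pairs from the same mouse and CSE treatment were higher with drugs, while the ranges with and without drugs overlapped through the EpiVeh libraries. The log2 fold change was 1.14 ± 0.24 (SE, n = 12 libraries) and did not pass in edgeR (adjusted p = 0.339). It passed in DESeq2 (adjusted p = 0.00397) and not with the mouse as a block (1.11 ± 0.21, adjusted p = 0.0683), and the adjusted p ranged from 0.00397 to 1.00 over the alternatives.

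The same gene differed by a similar size in the fibroblast fraction, where it had 1.39, 1.61 and 1.54 CPM in FibCSETF, 1.20, 1.24 and 0.795 CPM in FibTF, 0.688, 0.649 and 0.525 CPM in FibCSE, and 0.503, 0.744 and 0.576 CPM in FibVeh. Here every library with drugs was above every library without them. The log2 fold change was 1.06 ± 0.19 (adjusted p = 0.0875), and it passed with the mouse as a block (1.06 ± 0.19, adjusted p = 0.0283), in DESeq2 (adjusted p = 0.00156) and without the FibCSE library of mouse 1 (adjusted p = 0.0496). Over all alternatives the adjusted p ranged from 0.00156 to 0.912. Tmem212 was the member with the smallest p for drugs after CSE and for drugs without CSE in both fractions except EpiTF against EpiVeh, where Dnah6 came first. For EpiCSETF against EpiCSE it had a log2 fold change of 1.44 ± 0.35 (adjusted p = 0.983) and for FibCSETF against FibCSE one of 1.30 ± 0.26 (adjusted p = 0.268). For EpiTF against EpiVeh the value was 0.84 ± 0.34 (adjusted p = 1.00) and for FibTF against FibVeh it was 0.81 ± 0.27 (adjusted p = 0.738). In each of these 4 comparisons 3 of 3 mice were higher with drugs. They use the same 3 mice, and the fibroblast libraries held epithelial RNA, so they are not separate observations.

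The 250 bases before the start site of Tmem212 are shown because this gene had the smallest p for drugs in both fractions. They lie on chromosome 3 of GRCm38.p6, run 5′ to 3′ along the minus strand at chr3:27896369-27896618, and hold neither the X-box nor the forkhead letters searched for, so no base is in capitals.
Tmem212: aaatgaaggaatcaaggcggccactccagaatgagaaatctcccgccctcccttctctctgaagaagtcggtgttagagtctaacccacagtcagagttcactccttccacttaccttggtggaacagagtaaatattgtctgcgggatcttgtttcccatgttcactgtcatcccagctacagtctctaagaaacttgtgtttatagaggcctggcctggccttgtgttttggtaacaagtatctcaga
The absence of these letters says nothing about which factors act on the gene.

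Dnah9, the distal outer arm motor, was the member called with the mouse as a block in the epithelial fraction. It had 2.54, 4.82 and 2.31 CPM in EpiCSETF, 4.21, 5.69 and 2.51 CPM in EpiTF, 1.51, 2.67 and 1.28 CPM in EpiCSE, and 2.29, 4.42 and 1.92 CPM in EpiVeh. The groups overlapped, since mouse 2 was above the others throughout, and within each mouse both libraries with drugs were above their partners without (6 of 6 pairs). The log2 fold change was 0.72 ± 0.31 (adjusted p = 0.784), and with the mouse as a block it was 0.73 ± 0.12 (adjusted p = 0.0488). The adjusted p ranged from 0.0488 to 1.00 over the alternatives. Among fibroblast libraries Dnah9 had 2.25, 4.83 and 1.26 CPM in FibCSETF, 1.91, 2.92 and 1.13 CPM in FibTF, 0.774, 2.03 and 1.13 CPM in FibCSE, and 1.13, 1.79 and 1.64 CPM in FibVeh, and the groups overlapped there too (0.75 ± 0.37, adjusted p = 0.366, higher with drugs in 5 of 6 pairs).

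An inner and an outer arm motor had values in the opposite direction. Dnah6 had 0.239, 0.118 and 0.0952 CPM in EpiCSETF, 0.105, 0.0558 and 0.106 CPM in EpiTF, 0.148, 0.350 and 0.299 CPM in EpiCSE, and 0.295, 0.464 and 0.174 CPM in EpiVeh. All EpiTF libraries were below all EpiVeh libraries, while EpiCSETF and EpiCSE overlapped through mouse 1. The averaged log2 fold change was -1.22 ± 0.39 (adjusted p = 0.677, lower in 5 of 6 pairs). Dnah5 had 0, 0.141 and 0 CPM in EpiCSETF, 0.0841, 0.0836 and 0 CPM in EpiTF, 0.212, 0.485 and 0.192 CPM in EpiCSE, and 0.272, 0.537 and 0.0871 CPM in EpiVeh. It was lower with drugs in all 6 pairs (-2.41 ± 0.77, adjusted p = 0.680), from 22 counts at most in an epithelial library. The same 2 genes were among the 5 that were lower in the epithelial than in the fibroblast fraction.

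For Foxj1 itself the epithelial fraction gave a log2 fold change of 0.20 ± 0.27 for drugs (adjusted p = 0.943) and a value of -0.06 without the EpiCSETF library of mouse 2. In the fibroblast fraction it was 0.50 ± 0.29 (adjusted p = 0.450), higher in 6 of 6 pairs, but 0.13 without mouse 2 and -0.08 with the epithelial share covariate described below. The spoke gene Rsph1 had 5.39, 7.81 and 4.17 CPM in EpiCSETF and 4.64, 4.18 and 3.12 CPM in EpiCSE, overlapping groups with each mouse higher after drugs (0.58 ± 0.25, adjusted p = 0.983).

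In the fibroblast fraction 0 of the 36 members that passed the filter were called for drugs by edgeR, beside 0.109% of all 18287 genes. At an unadjusted p under 0.05 there were 3 (Tmem212, Ccdc114 and Tekt2), DESeq2 called 1 (2.01% of all genes), and with the mouse as a block 1 was called (2.54% of all genes). DESeq2 gave no adjusted p for 18 of the 42 members here. The median of the 36 members was 0.09 and 22 were positive, against -0.00456 and 48.8% of all genes, and it was -0.02 without the FibTF library of mouse 2 and 0.22 without the FibVeh library of mouse 2. Tekt2, a tektin of the doublets, had the second smallest p. It had 0.569, 0.626 and 0.479 CPM in FibCSETF, 0.293, 0.445 and 0.333 CPM in FibTF, 0.581, 0.961 and 0.857 CPM in FibCSE, and 0.628, 0.638 and 0.454 CPM in FibVeh. It was lower with drugs in all 6 pairs (-0.58 ± 0.21, adjusted p = 0.236), and the FibTF libraries lay below the FibVeh libraries.

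The drug effect of the epithelial fraction minus that of the fibroblast fraction was tested directly. Of 38 members 0 were called by edgeR, by DESeq2 (0.00281% of all genes) or with the mouse as a block, 0 had an unadjusted p under 0.05, and none of the 19142 genes was called (0%). The 2 members with the smallest p were Dnah5 (-1.66 ± 1.04, adjusted p = 1.00) and Tekt2 (0.70 ± 0.44, adjusted p = 1.00). The median difference was 0.03 and 20 of 38 were positive, and it was -0.13 without the EpiCSETF library of mouse 2 and 0.27 without the EpiVeh library of mouse 2.

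**Figure D4:**
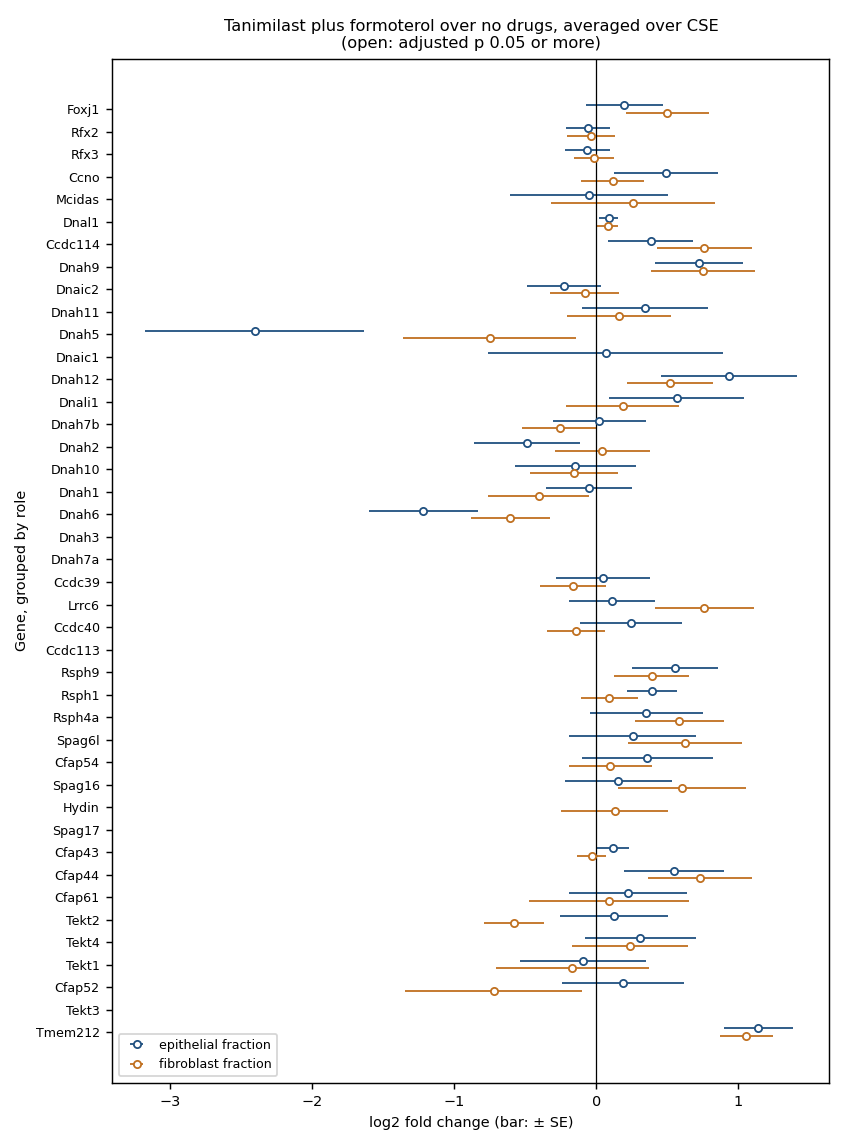
Log2 fold change with tanimilast and formoterol over none, averaged over CSE (horizontal axis, bar ± SE), for each member that passed the filter in the epithelial fraction (upper point of a pair) and the fibroblast fraction (lower point). Tmem212 lies at 1.14 and 1.06 with short bars, Dnah5 and Dnah6 lie left of 0 in the epithelial fraction, and no point is filled.

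Markers of the fractions moved beside these values. With drugs the median of 11 fibroblast identity genes was -0.55 in the epithelial fraction and -0.23 in the fibroblast fraction, and that of 18 epithelial identity genes was 0.09 in the epithelial fraction and 0.41 in the fibroblast fraction. With the mouse as a block Cldn3, Cdh1 and Cldn7 were called higher in the fibroblast fraction (2.54% of all genes called). S100a4 (-0.85 ± 0.10, adjusted p = 0.0137), Prrx1 (-0.48 ± 0.07, adjusted p = 0.0165) and Col1a2 (-0.70 ± 0.13, adjusted p = 0.0308) were lower there. In the epithelial fraction the block called Col3a1, lower (-0.72 ± 0.11, adjusted p = 0.0436), beside 0.205% of all genes. The summed level of the 18 epithelial genes was 10926 to 12231 CPM in EpiCSETF, 12149 to 13859 in EpiTF, 10078 to 12717 in EpiCSE and 10921 to 13628 in EpiVeh. The same sum in fibroblast libraries was 4911 to 7422 CPM in FibCSETF, 4584 to 7193 in FibTF, 3682 to 5124 in FibCSE and 3943 to 5332 in FibVeh. With the balance of the 2 lists as a covariate, the median of the members for drugs was 0.55 in the epithelial fraction (32 of 36 positive) and -0.11 in the fibroblast fraction (12 of 36 positive), and 0 members were called in either. The value of Tmem212 was then 1.18 ± 0.27 in the epithelial fraction (adjusted p = 0.176) and 1.02 ± 0.24 in the fibroblast fraction (adjusted p = 0.242), close to those without the covariate.

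Drugs were also compared with and without the earlier extract. In EpiCSETF over EpiCSE 27 of 36 members were positive, with a median of 0.35, and in EpiTF over EpiVeh 18 were, with a median of 0.03. No member was called in either by edgeR or DESeq2 (3 and 2 members at an unadjusted p under 0.05). Of all genes edgeR called 0%, and DESeq2 called 0.0317% for EpiCSETF over EpiCSE and 0.019% for EpiTF over EpiVeh. Their difference, the interaction, had a median of 0.38 with 26 of 36 positive, 0 called by edgeR (0% of all genes) and DESeq2 (0.00317%) and 0 at an unadjusted p under 0.05. The median interaction was -0.09 without the EpiCSETF library of mouse 2 and -0.03 without the EpiVeh library of mouse 2, and 0.05 without mouse 2 altogether. The median of EpiCSETF over EpiCSE was -0.03 without the EpiCSETF library of mouse 2, and that of EpiTF over EpiVeh was -0.27 without the EpiTF library of mouse 2 and 0.40 without the EpiVeh library of mouse 2. The 2 members with the smallest p for the interaction were Tekt4 (1.36 ± 0.79) and Dnah2 (1.22 ± 0.75), both at adjusted p = 1.00.

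In the fibroblast fraction the median was 0.10 for FibCSETF over FibCSE (23 of 36 positive) and 0.09 for FibTF over FibVeh (21 positive), and they were -0.02 without the FibCSETF library and -0.12 without the FibTF library of mouse 2. In FibCSETF over FibCSE 0 members were called beside 0.0109% of all genes, and 1 had an unadjusted p under 0.05. For FibTF over FibVeh 0 were called beside 0.00547%, and 2 had an unadjusted p under 0.05. DESeq2 called 0 members in both, beside 0.423% of all genes for FibCSETF over FibCSE, where it gave no adjusted p for 29 of 42 members, Tmem212 among them, and 0.0562% for FibTF over FibVeh. For FibTF over FibVeh it gave no adjusted p for 11 of 42 members. For the interaction 0 members were called beside 0% of all genes, 0 had an unadjusted p under 0.05 and DESeq2 called 0. The smallest p values there belonged to Hydin (-1.38 ± 0.76) and the ruler gene Ccdc39 (0.72 ± 0.46), both at adjusted p = 1.00.

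The effect of CSE was read 14 days after the extract was withdrawn. In the epithelial fraction, averaged over drugs, 0 of 36 members were called by edgeR, beside 0.00554% of all genes, 0 had an unadjusted p under 0.05, and DESeq2 called 0 (0.568% of all genes). The members had a median of -0.02 with 17 of 36 positive, and it was -0.14 without the EpiCSETF library and 0.19 without the EpiVeh library of mouse 2. In EpiCSE over EpiVeh, with no drugs, the median was -0.20 and 10 of 36 were positive, with 0 called by edgeR (0% of all genes) or DESeq2 (0.0381%) and 1 member, Tmem212, at an unadjusted p under 0.05. Without the EpiVeh library of mouse 2 that median was 0.14, without mouse 2 altogether it was -0.04, and without mouse 3 it was -0.34.

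Tmem212, whose values are given above, was lower in EpiCSE than in EpiVeh in each mouse, and the groups did not overlap (-0.80 ± 0.35, adjusted p = 1.00). The value was -0.33 without mouse 2 and -1.12 without mouse 3. Averaged over drugs the value was -0.50 ± 0.24 (adjusted p = 0.622). Dnah9 was lower after CSE in 6 of 6 pairs, at -0.54 ± 0.31 on the log2 scale (adjusted p = 0.689) and, with the mouse as a block, -0.53 ± 0.12 (adjusted p = 0.0727). Foxj1 had -0.04 ± 0.27 (adjusted p = 0.976), lower in 5 of 6 pairs, and its sign changed with single libraries.

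After CSE more members were above 0 in the fibroblast fraction. Averaged over drugs 31 of 36 were positive with a median of 0.29, beside 54.4% and 0.02 over all genes, and the median was 0.17 without the FibCSETF library of mouse 2 and 0.53 without mouse 1. By edgeR 0 members were called, while 4.01% of all genes were, 335 higher and 398 lower, and with the mouse as a block 0 members were called beside 8.69% of all genes. At an unadjusted p under 0.05 there were 5 members, and DESeq2 called 1, Rfx3, beside 4.91% of all genes. DESeq2 gave no adjusted p for 11 of the 42 members. Without the FibTF library of mouse 2, edgeR called Cfap52, picked after its values were seen. That gene had 0, 12 and 0 counts in the FibTF libraries, so the group was then at 0 and no fold is given. With all libraries its value was 1.29 ± 0.63 (adjusted p = 0.265). Besides Rfx3, the members under that unadjusted p were Ccno, Tekt2, the central pair gene Cfap54 and Ccdc114.

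Rfx3, one of the factors that bind the X-box, had 7.54, 6.85 and 7.49 CPM in FibCSETF, 5.98, 5.78 and 5.08 CPM in FibTF, 5.31, 9.92 and 7.74 CPM in FibCSE, and 6.53, 5.40 and 4.94 CPM in FibVeh. Each FibCSETF library was above each FibTF library, while FibCSE and FibVeh overlapped through mouse 1. The log2 fold change was 0.42 ± 0.14 (adjusted p = 0.119, higher in 5 of 6 pairs). It passed in DESeq2 (adjusted p = 0.0453), without the FibCSE library of mouse 1 (0.0279) and without mouse 1 altogether (0.0476), and the adjusted p ranged from 0.0279 to 0.703 over the alternatives.

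Ccno, the cyclin of early multiciliated cells, had 1.28, 1.22 and 0.757 CPM in FibCSETF, 0.997, 0.766 and 0.769 CPM in FibTF, 1.40, 1.01 and 1.13 CPM in FibCSE, and 0.660, 0.893 and 0.424 CPM in FibVeh. The FibCSE libraries lay above the FibVeh libraries, and FibCSETF overlapped FibTF through mouse 3. The averaged log2 fold change was 0.61 ± 0.22 (adjusted p = 0.150), and FibCSE over FibVeh gave 0.83 ± 0.32 (adjusted p = 0.290). In FibCSE over FibVeh 27 of 36 members were positive with a median of 0.20, and 0 were called by edgeR (0.104% of all genes), 2 had an unadjusted p under 0.05, and DESeq2 called 0 (1.61% of all genes). DESeq2 gave no adjusted p for 15 of the 42 members there. Foxj1 averaged over drugs had 0.49 ± 0.29 (adjusted p = 0.374) and Tmem212 0.27 ± 0.19 (adjusted p = 0.445).

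The CSE effect of the epithelial fraction minus that of the fibroblast fraction had a median of -0.31 over 38 members, with 5 positive, beside -0.02 and 45.5% positive over all genes. DESeq2 gave no adjusted p for 24 of the 42 members in this difference. No member was called by edgeR (0% of all genes) or DESeq2 (0.228%), and 2 had an unadjusted p under 0.05. They were Tmem212 (-0.77 ± 0.30, adjusted p = 0.501) and Cfap52, a protein of the doublet interior (-1.73 ± 0.79, adjusted p = 0.559). Cfap52 had counts in 1 of 3 FibTF libraries, and the value was -1.29 without the EpiVeh library of mouse 2. Without the EpiVeh library of mouse 2 the median difference was -0.12, and without the EpiCSETF library of mouse 2 it was -0.53.

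**Figure D5:**
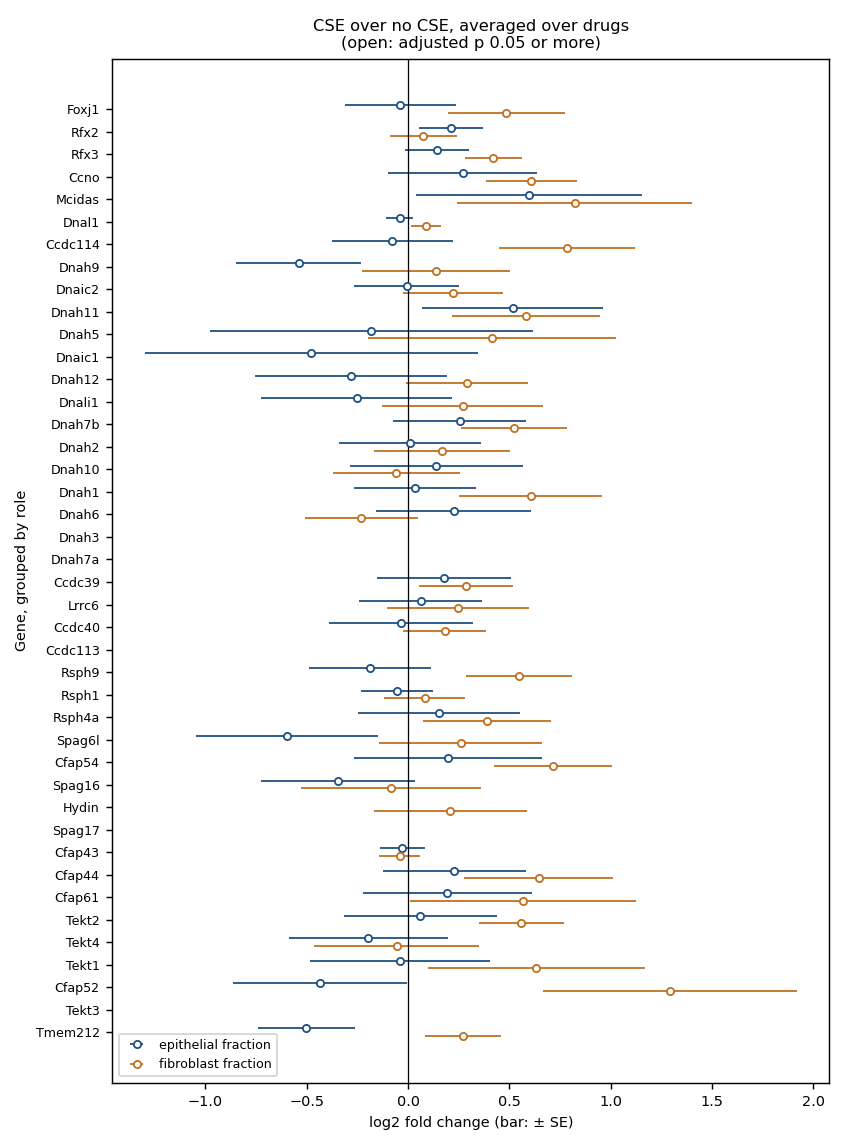
Log2 fold change after CSE over no CSE, averaged over drugs (horizontal axis, bar ± SE), for each member that passed the filter in the epithelial fraction (upper point of a pair) and the fibroblast fraction (lower point). In the fibroblast fraction 31 of 36 points lie right of 0, in the epithelial fraction 17 of 36 do, and no point is filled.

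Epithelial markers of other kinds were called after CSE in the fibroblast fraction, where 4.01% of all genes were called by edgeR and 8.69% with the mouse as a block. Of 8 alveolar type 2 genes 6 rose (4 with the block), and of 8 alveolar type 1 genes 3 rose (3 with the block). The goblet cell gene Muc4 was instead lower (-0.61 ± 0.12, adjusted p = 0.0229). With the block the goblet cell gene Muc16 was lower too (-0.61 ± 0.16, adjusted p = 0.0450). The club cell gene Scgb1a1 had a log2 fold change of 4.54 ± 0.62 (adjusted p = 0.0066), 4 of 10 club cell genes rose (9 with the block), and the NOTCH pathway genes Notch1 (0.56 ± 0.07, adjusted p = 0.0051) and Dll1 (1.06 ± 0.25, adjusted p = 0.0441) rose, out of 9 tested (4 with the block). NOTCH signalling is known to hold airway progenitors back from the multiciliated fate. In the epithelial fraction 0 of 9 were called for CSE by edgeR (0.00554% of all genes). With the mouse as a block 181 of all 18038 genes were called there. Among them were Notch1 (0.37 ± 0.06, adjusted p = 0.0303), Nrarp (0.34 ± 0.06, adjusted p = 0.0403), Dll1 (0.66 ± 0.12, adjusted p = 0.0470) and Jag2 (0.26 ± 0.05, adjusted p = 0.0470). The calls were not limited to NOTCH genes. Trp63 and Dapl1, from the basal cell list below, and Col3a1 (0.86 ± 0.11, adjusted p = 0.0129) were higher with smaller p. Ager, a marker of alveolar type 1 cells, was higher too (0.98 ± 0.19, adjusted p = 0.0492). Muc4 was lower (-0.69 ± 0.13, adjusted p = 0.0487). Of the 18 epithelial identity genes 0 were called for CSE in either fraction without the block, with a median of -0.12 in the epithelial and 0.10 in the fibroblast fraction. With the block 3 were higher in the fibroblast fraction and 0 were called in the epithelial fraction. The fibroblast identity genes had medians of 0.48 and -0.31. Fbln2, one of them, was lower in the fibroblast fraction (-0.81 ± 0.10, adjusted p = 0.00476). With the block Fbln2 and Lum (-0.79 ± 0.21, adjusted p = 0.0477) were lower there and S100a4 was higher (0.37 ± 0.10, adjusted p = 0.0435). With the balance of the epithelial and fibroblast identity lists as a covariate, the members had a CSE median of -0.20 in the epithelial fraction (5 of 36 positive) and 0.21 in the fibroblast fraction (28 of 36 positive), with 0 called in either. Whether these genes bear on the ciliary values was not tested.

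The second list for multiciliated cells had medians close to those of the members. For drugs in the epithelial fraction 35 of its 48 tested genes were positive with a median of 0.16 and 0 called, and for CSE in the fibroblast fraction 42 of 53 were positive with a median of 0.30 and 0 called (4.01% of all genes). With the mouse as a block 3 of the 53 were called (8.69% of all genes), Trp73, Pifo (0.89 ± 0.24, adjusted p = 0.0467) and Enkur (0.70 ± 0.19, adjusted p = 0.0475). Its gene with the smallest p in both CSE comparisons was Trp73, a transcription factor upstream of Foxj1, at 2.01 ± 0.50 in the epithelial fraction (adjusted p = 0.267) and 2.16 ± 0.75 in the fibroblast fraction (adjusted p = 0.133, and 0.0316 with the mouse as a block). The 30 genes for intraflagellar transport and the ciliary base had medians of 0.02 for drugs in either fraction, 0.02 for CSE in the epithelial and 0.04 for CSE in the fibroblast fraction. By edgeR 1 of them was called in these 4 comparisons, Kif3a, a kinesin-II motor subunit, lower after CSE in the fibroblast fraction (-0.24 ± 0.06, adjusted p = 0.0463). With the mouse as a block Ift80, an intraflagellar transport gene, was called there too, higher after CSE (0.27 ± 0.07, adjusted p = 0.0436).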

How the data were processed

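RNA from Epcam-sorted fractions of organoid cultures was measured in 24 poly-A RNA-seq libraries. The authors deposited 1 table of raw read counts per gene, per the file headers, with 49280 features, of which 5941 carry identifiers of newly assembled genes. Trimmomatic 0.30 and DESeq2 are the tools named, per the submitters' processing notes. Aligner, counting tool and strand setting were not given in the sources used here, so reads of overlapping and antisense genes cannot be told apart. The notes name a human assembly for mouse data, so no coordinates were taken with the counts.

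Counts were scaled by TMM, filtered with filterByExpr and fitted with edgeR 4.0.16 (glmQLFit, glmQLFTest, robust, R 4.3.3), with 1 mean per group, within each fraction and over both. All p-values were adjusted by Benjamini-Hochberg over all genes tested, with a call at an adjusted p under 0.05. CPM values are counts over the library total. Same-numbered libraries came from cultures of the same mouse, per the labels. The correlation of their deviations had a median of 0.22 in the epithelial fraction (0.0106 to 0.504) and 0.15 in the fibroblast fraction (-0.0141 to 0.523). Alternatives were the mouse as a block, DESeq2 1.42.0, its size factors, no filter on low counts, a covariate for epithelial share, and leaving out libraries or mice. No 2 libraries held identical counts (24 replicate pairs, chi-square over degrees of freedom 14.1 to 119). DESeq2 gave no adjusted p for 0 to 29 of the 42 members, depending on the comparison, and these stayed out of its counts of calls.

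The members and the 13 comparison lists were chosen with earlier results of these data known, and 246 of 248 listed symbols were found. Genes were named for changes by a rule: the highest member of each role, Foxj1, Mcidas, Ccno and Tmem212, members called for drugs or CSE with or without the block, the 2 smallest p-values of each such comparison, and the 3 largest called differences each way between fractions. Other members and list genes with fold changes were picked after their values were seen.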

Additional observations from a re-analysis of the deposited data

How the results depend on the processing

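Of 1034 values of named members under the alternatives, 1013 kept their direction and their side of the threshold, 4 lost and 8 gained the call, and 9 changed sign, all of them Foxj1. Foxj1 changed sign for drugs in the epithelial fraction without EpiCSETF of mouse 2 (-0.057, and at most 0.35 leaving out others), for drugs in the fibroblast fraction with the epithelial share as covariate (-0.082), and for CSE in the epithelial fraction without EpiCSE (0.01) or EpiCSETF (0.04) of mouse 1, EpiVeh (0.10) or EpiTF (0.14) of mouse 2, EpiCSE (0.04) or EpiCSETF (0.08) of mouse 3, or all of mouse 3 (0.00385), against -0.30 without EpiCSETF of mouse 2. The cause was not tested. Counts of members called were 0 for drugs in the epithelial fraction (1 with the replicate block, 1 in DESeq2), 0 for drugs in the fibroblast fraction (1 with the block, 1 in DESeq2, 0 to 1 leaving out libraries or mice) and 0 for CSE in the fibroblast fraction (1 in DESeq2, 0 to 1 leaving out). Between fractions 21 were called, and 11 to 22 when libraries or mice were left out; the block changed no other call of a member named for drugs or CSE than Tmem212 in the fibroblast and Dnah9 in the epithelial fraction. Genes called moved more. Epithelial drugs gave 1 gene (37 with the block, 55 in DESeq2, 2 with no filter, 11 with the covariate, 0 to 4 leaving out) and epithelial CSE 1 (181, 179, 11, 53 in the same order, 0 to 17). The interaction gave 0 (1 in DESeq2, 0 to 1), EpiTF over EpiVeh 0 (1, 6, 1 and 1, 0 to 2), EpiCSETF over EpiCSE 0 (1, 10, 1 and 1, 0 to 1) and EpiCSE over EpiVeh 0 (12 in DESeq2, 1 with no filter, 3 with the covariate, 0 leaving out). Fibroblast drugs gave 20 (464 with the block, 681 in DESeq2, 4 with the covariate, 0 to 288) and fibroblast CSE 733 (1589, 1660 and 1283, 0 to 1117). The fibroblast interaction gave 0 (1 with the block, 0 to 1), FibTF over FibVeh 1 (19 in DESeq2, 0 with the covariate, 0 to 1), FibCSETF over FibCSE 2 (6 with the block, 143 in DESeq2, 0 with the covariate, 0 to 4) and FibCSE over FibVeh 19 (124 with the block, 545 in DESeq2, 47 with no filter, 334 with the covariate, 0 to 41). The difference between fractions gave 0 for drugs (1 in DESeq2, 0 to 1) and 0 for CSE (1 with the block, 81 in DESeq2, 0 to 1), and the fractions themselves 13180 (11103 to 13500). Members under 0.2 CPM rest on few counts, so small differences in them were not detectable at this depth.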

Other observations

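Of 10 tested goblet cell genes, which serve airway mucus, 1 was called for drugs in the fibroblast fraction by edgeR (0.109% of all genes), and 0 were called in the epithelial fraction (0.00554% of all genes). That gene was Muc5b, a secreted gel-forming mucin, higher by 2.00 ± 0.30 on the log2 scale (adjusted p = 0.0408). With the mouse as a block 4 of 10 were higher in the fibroblast fraction (2.54% of all genes called), Muc5b, Muc5ac, Agr2 and Muc4. In the epithelial fraction the block gave 2 of 10 (0.205% of all genes called), Muc5b (1.94 ± 0.20, adjusted p = 0.0217) and Muc5ac (1.16 ± 0.12, adjusted p = 0.00961). Of 10 basal cell genes 2 were higher after CSE in the fibroblast fraction by edgeR (4.01% of all genes called), Aqp3 (0.65 ± 0.12, adjusted p = 0.0203) and the transcription factor Trp63 (0.85 ± 0.20, adjusted p = 0.0459). With the mouse as a block 4 were higher and 1, Itga6, was lower (-0.27 ± 0.06, adjusted p = 0.0248), where 8.69% of all genes were called. In the epithelial fraction 0 of the 10 basal cell genes were called after CSE by edgeR (0.00554% of all genes). The block gave 2 there, both higher (181 of all 18038 genes called). They were Trp63 (0.48 ± 0.06, adjusted p = 0.00795) and Dapl1 (0.89 ± 0.14, adjusted p = 0.0278).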
